A study of Mus musculus with 3 samples.

Results

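The Myc, Max and Mxd network was followed in mouse pro-B cells with and without Pax5. Its 10 genes were taken by name (Myc, Mycn, Mycl, Max, Mxd1, Mxd3, Mxd4, Mxi1, Mnt and Mlx) and all 10 were found among the 27179 genes counted. RNA sequencing covered 2 Pax5-/- samples from male C57BL/6 bone marrow and 1 wildtype sample from female C57BL/6 bone marrow. The labels do not say whether the Pax5-/- samples came from separate animals or cultures, so their spread may be technical. Pro-B cells are early B-cell precursors in which heavy chain genes are rearranged, and Pax5 is a transcription factor that holds cells in the B lineage. B220+ marrow cells of both genotypes were expanded on OP9, a stromal feeder line. Removal of IgM+ cells on day 7 by immunomagnetic depletion is described for Pax5-/- cells only, so genotype, sex and this step cannot be told apart. The comparison asks which of these genes differ when Pax5 is missing.

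Myc, Mycn and Mycl encode basic helix-loop-helix leucine zipper proteins that bind the E-box CACGTG as partners of Max and activate genes of growth, ribosome assembly and metabolism. The Mxd proteins (Mxd1, Mxd3, Mxd4 and Mxi1) and Mnt pair with the same Max, bind the same E-box and recruit Sin3 corepressors, so they oppose Myc. Mlx is a Max-like protein that partners Mxd1, Mxd4 and Mnt as well as the glucose-sensing Mondo proteins. In B-cell precursors Myc and Mycn are known to drive proliferation downstream of interleukin 7.

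One member, Mxd4, was higher in Pax5-/- cells, about 2-fold, and no other member was called. Mxd4 was also the most abundant Mxd or Mnt transcript per deposited gene length in every sample, in the wild type only narrowly ahead of Mxd3. In counts not divided by length, Mnt was above Mxd4 in every sample. The Mxd4 promoter holds an E-box, as do those of Max, Mnt and Mlx, so these are shown first. Promoter sequences were taken from RefSeq (GRCm38.p6), from 250 bases before to 50 bases after a start site, and 9 of the 10 members had an entry there. All lines read 5′ to 3′ along the gene and are in lower case with the E-box, CACGTG, in capitals. The E-box reads the same on both strands. The whole 300-base window is given for Mxd4 and 60 bases around the E-box for the others.
Mxd4 (chr5:34187661-34187960, minus strand): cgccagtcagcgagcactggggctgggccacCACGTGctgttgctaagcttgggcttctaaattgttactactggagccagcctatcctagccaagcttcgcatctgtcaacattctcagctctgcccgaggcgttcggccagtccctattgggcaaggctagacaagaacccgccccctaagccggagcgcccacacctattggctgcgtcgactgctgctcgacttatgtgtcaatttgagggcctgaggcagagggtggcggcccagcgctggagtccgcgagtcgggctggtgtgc
Max (chr12:76962219-76962278, minus strand): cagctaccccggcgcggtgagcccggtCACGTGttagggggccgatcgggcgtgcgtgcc
Mnt (chr11:74830774-74830833, plus strand): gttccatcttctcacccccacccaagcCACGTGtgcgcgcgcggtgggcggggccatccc
Mlx (chr11:101087223-101087282, plus strand): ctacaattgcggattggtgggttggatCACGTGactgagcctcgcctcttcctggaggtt

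Counted from the start site, the E-box began at position -219 in Mxd4, -123 in Mnt, -40 in Mlx and -3 in Max. Of the 9 members with a promoter entry, 4 held CACGTG in a window, while 8.09% of all 27025 genes with an entry did. That share covers genes whether or not they were expressed here, and a difference from it was not tested. The windows of Mycn, Mycl, Mxd1, Mxd3 and Mxi1 held none. The Mycn window held the letters TTTGGCGC or TTTCGCGC, both strands searched, which are forms of the site of E2F, a factor of cell cycle entry. They occurred at 3 places, beginning at positions -183, -179 and -168 from the start site, and the first and second overlap. Of all genes with an entry, 0.929% held such letters. These letters are capitalised in the line for Mycn, shown because its counts differed most between the Pax5-/- samples among members that were tested.
Mycn (chr12:12941985-12942046, minus strand): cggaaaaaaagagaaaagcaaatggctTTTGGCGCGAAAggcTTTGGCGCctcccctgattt

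The libraries held 6487846 and 6697879 counts in Pax5-/- samples against 6530057 in wild type. Pax5 itself, the targeted gene, gave 417 and 551 counts in Pax5-/- samples, against 1601 in the wild type. Its log2 fold change, Pax5-/- over wild type, was -1.78 (SE 0.19, adjusted p = 0.0107, edgeR quasi-likelihood test); which exons are deleted is not given in the sources used here. Among the pro-B markers, the recombinase gene Rag1 had 3737 and 4621 counts in Pax5-/- samples against 2237 in wild type. The 11 pro-B markers summed to 3422 and 3765 CPM (counts scaled to library size) in Pax5-/- samples against 5873 CPM in wild type. The 8 T-cell markers summed to 61.1 and 94.2 against 21.7 CPM, with Cd3e at 0, 1 and 0 counts and Thy1 the main contributor. The 11 myeloid markers summed to 29.2 and 46.1 against 88.9 CPM, with S100a8, S100a9 and Ngp at 0 in both Pax5-/- samples and at 30, 232 and 115 counts in the wild type. Lyz2, another myeloid marker, was called higher, with 92 and 128 counts against 28 (log2 fold change 1.91, adjusted p = 0.0314, edgeR). The 9 stromal markers summed to 9.41 and 7.79 against 20.4 CPM, and the 8 erythroid and megakaryocyte markers to 0.926 and 0.881 against 0.936 CPM. Fewer cells of a type and less RNA per cell cannot be told apart in such bulk samples.

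Differences were tested with edgeR's quasi-likelihood test over 11783 genes, and a gene was called at a Benjamini-Hochberg adjusted p under 0.05. Of these genes 18.1% were called, 9.53% higher and 8.55% lower in Pax5-/-. Of the 10 members 9 were tested, 1 was called higher and 0 lower; Mycl was too low for the test. At an unadjusted p under 0.05 there were 1 higher and 1 lower member, Mxd4 and Mxi1, and DESeq2 and limma-voom each called 1 higher and 0 lower. With 2 Pax5-/- samples and 1 wild type, the spread comes from the Pax5-/- samples alone. The wild-type value lay outside the range of the Pax5-/- samples for 7 of 9 tested members, against 85.2% of all genes tested. No member lies on a sex chromosome.

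**Figure D1:**
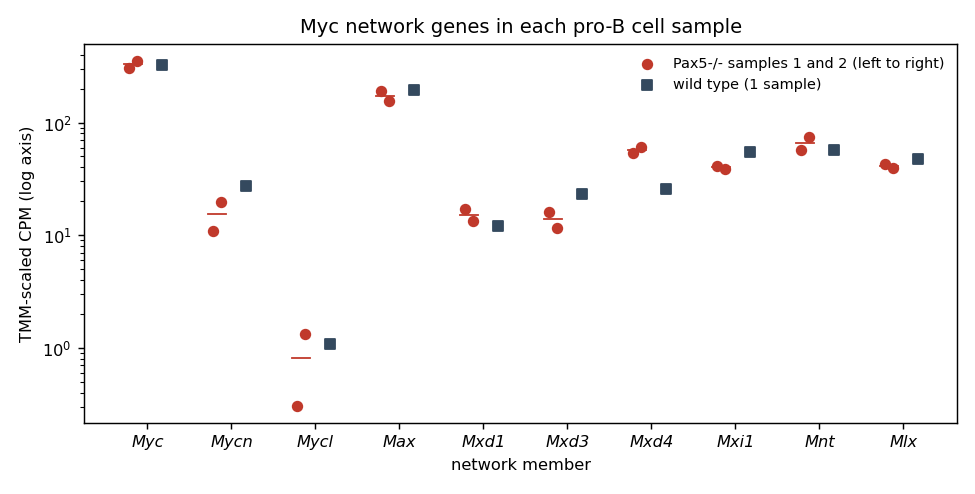
TMM-scaled CPM (log axis) of the 10 members, with both Pax5-/- samples as red circles, their mean as a red line, and the wild type as a dark grey-blue square. Mxd4 stands at 53.2 and 61.0 CPM in Pax5-/- samples against 25.7 CPM in wild type, while the Myc values lie close together and Mycl is near the lower end in all samples.

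Myc, the activator of the network (Entrez 17869; chromosome 15, 61985341 to 61990361, mm10), gave 1982 and 2382 counts in Pax5-/- samples against 2068 in wild type. This is 306 and 350 CPM against 323 CPM, so the wild type lay between the Pax5-/- samples. The log2 fold change, Pax5-/- over wild type, was 0.02 (SE 0.14, adjusted p = 0.916), with a 95% interval of -0.35 to 0.40. On the linear scale that interval runs from 0.784-fold to 1.32-fold, which does not include a doubling or a halving of the Myc transcript.

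Mycn, a close relative of Myc that is active in early progenitors (Entrez 18109; chromosome 12, 12936093 to 12941836), had 71 and 135 counts in Pax5-/- samples against 177 in wild type. It stood at 11.0 and 19.8 CPM in Pax5-/- samples against 27.6 CPM in wild type. Both Pax5-/- samples were below the wild type, but they differed from each other 1.81-fold. The log2 fold change of -0.84 (SE 0.39) was not called (adjusted p = 0.208), and its interval of -1.90 to 0.22 includes no change. The log2 difference from the wild type was -1.31 for Pax5-/- sample 1 and -0.47 for sample 2, each a value with no test.

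Mycl (Entrez 16918; chromosome 4, 122995588 to 123002490), the remaining family member, was close to the limit of detection. It had 2 and 9 counts in Pax5-/- samples against 7 in wild type, or 0.309 and 1.32 CPM against 1.09 CPM. For comparison, a level of 3 counts equals 0.463 and 0.441 CPM in Pax5-/- samples against 0.468 CPM in wild type. The ratio of pooled CPM was 0.758 (exact Clopper-Pearson 95% counting interval 0.268 to 2.31). A difference in Mycl was not detectable at this depth.

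Max, the shared partner without which neither Myc nor the Mxd proteins bind DNA well (Entrez 17187; chromosome 12, 76937269 to 76962323), had 1228 and 1048 counts in Pax5-/- samples against 1250 in wild type. Its 190 and 154 CPM in Pax5-/- lay below the 195 CPM of the wild type, the first of them by little. The log2 fold change was -0.18 (SE 0.18, adjusted p = 0.510; 95% interval -0.67 to 0.30), not called. Mlx (Entrez 21428; chromosome 11, 101086707 to 101092207) had 280 and 271 counts against 307, or 43.2 and 39.8 CPM against 47.9 CPM. It was not called either, at -0.21 (SE 0.15, adjusted p = 0.382; interval -0.61 to 0.20). In GENCODE M21, Mlx shares 385 exonic bases with Psmc3ip on the opposite strand. The strand setting of the counting is not given, so reads there may belong to either gene.

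Mxd4 (Entrez 17122; chromosome 5, 34176580 to 34187710), a Max partner that opposes Myc and is linked to cells leaving the cell cycle, was the member that rose. It had 345 and 415 counts in Pax5-/- samples against 165 in wild type. At 53.2 and 61.0 CPM, both Pax5-/- samples were well above the 25.7 CPM of the wild type and differed from each other only 1.14-fold. The mean of 57.1 ± 5.45 CPM (SD, n = 2) corresponds to 1.15 as a log2 fold change (SE 0.17, adjusted p = 0.0232, edgeR quasi-likelihood test), or 2.22-fold with a 95% interval of 1.60 to 3.08. Over the alternative settings its adjusted p ran from 0.00217 to 0.728, and the call was lost in 1 of 9, in which all genes were given a biological coefficient of variation of 0.4 in place of the estimate. Compared one at a time, Pax5-/- samples 1 and 2 stood 1.04 and 1.23 above the wild type on the log2 scale. A noncoding antisense gene overlaps 514 of the 8483 exonic bases of Mxd4 in GENCODE M21 and was not separated from it. The deposited length of Mxd4 is only 1179 bases, and how many of the shared bases lie within it was not measured. Of the marker sums given above, that of T cells was higher and those of myeloid and stromal cells lower in both Pax5-/- samples. The part of other cell types in the Mxd4 difference was not tested.

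No other Mxd gene was called. Mxi1, another Max partner and corepressor recruiter (Entrez 17859; chromosome 19, 53310128 to 53373293), had 269 and 261 counts in Pax5-/- samples against 348 in wild type. Its 41.5 and 38.3 CPM were close to each other and below the 54.3 CPM of the wild type. The log2 fold change of -0.44 (SE 0.14) had an unadjusted p of 0.0359 in edgeR's test and an adjusted p of 0.113, so it was not called. Mxi1 shares 194 exonic bases with Gm10197 on the other strand in GENCODE M21. Mxd3, the Mxd gene known for expression in dividing cells (Entrez 17121; chromosome 13, 55325170 to 55329900), had 105 and 79 counts against 150, or 16.2 and 11.6 CPM against 23.4 CPM. Its log2 fold change was -0.75 (SE 0.28, adjusted p = 0.140; interval -1.51 to 0.00). It shares 105 exonic bases with the far more abundant Prelid1 on the other strand, which had 1418 and 1483 counts in Pax5-/- samples against 2044 in wild type.

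Mxd1, the first described antagonist of Myc at Max and a gene of differentiating cells (Entrez 17119; chromosome 6, 86647044 to 86669234), had 110 and 92 counts in Pax5-/- samples against 78 in wild type. Its 16.98 and 13.5 CPM lay above the 12.2 CPM of the wild type. Its log2 fold change was 0.32 (SE 0.26, adjusted p = 0.437), not called. Mnt, the broadly expressed antagonist (Entrez 17428; chromosome 11, 74830806 to 74845725), had 370 and 504 counts in Pax5-/- samples against 369 in wild type, or 57.1 and 74.0 CPM against 57.6 CPM. The wild type lay within the Pax5-/- range, and the log2 fold change was 0.19 (SE 0.22, adjusted p = 0.577).

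**Figure D2:**
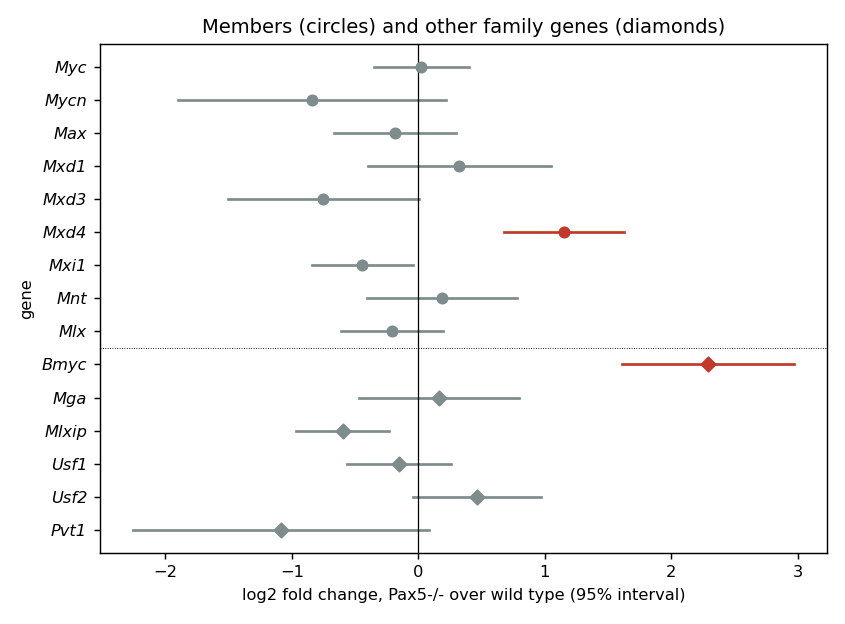
Log2 fold change, Pax5-/- over wild type, with its 95% interval, for the 9 tested members (circles) and 6 other family genes and partners (diamonds); genes called at an adjusted p under 0.05 are red and the others grey. Mxd4 at 1.15 and Bmyc at 2.29 are the called genes, and the interval of Myc, at 0.02, is the narrowest among the members.

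Levels were compared between genes as RPKM, CPM per kilobase of the deposited gene length. Myc and Max ranked first and second in all samples. In Pax5-/- they averaged 137 ± 13.0 and 85.7 ± 12.6 RPKM (SD, n = 2), and in the wild type they stood at 134 and 97.2 RPKM. Mxd4 came next in both Pax5-/- samples at 48.4 ± 4.62 RPKM, ahead of Mlx at 21.0 ± 1.22 RPKM. In the wild type Mlx, at 24.2 RPKM, and Mxd4, at 21.8 RPKM, were close and in the other order. Mnt and Mxd3 followed at 14.3 ± 2.61 and 10.7 ± 2.50 RPKM in Pax5-/-, with overlapping ranges, and at 12.6 and 18.01 RPKM in the wild type. Mxi1 and Mycn also overlapped, at 7.11 ± 0.40 and 5.93 ± 2.42 RPKM in Pax5-/-, and stood at 9.66 and 10.6 RPKM in the wild type. Mxd1 was at 3.27 ± 0.53 against 2.61 RPKM and Mycl was last, at 0.233 ± 0.205 against 0.312 RPKM.

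Taken by role, the Myc family summed to 132 and 154 RPKM in Pax5-/- samples against 145 RPKM in wild type, with Myc making up 96.7% and 94.8% of the sum against 92.5%. The Mxd genes and Mnt summed to 81.1 and 86.5 RPKM in Pax5-/- samples against 64.7 RPKM in wild type. Mxd4 supplied 55.7% and 59.8% of this antagonist sum in Pax5-/- samples against 33.8% in wild type. The share of Mxd3 was 15.4% and 10.3% against 27.9%, and that of Mxi1 9.11% and 7.89% against 14.9%. The ratio of the Myc family sum to the antagonist sum was 1.62 and 1.78 in Pax5-/- samples against 2.25 in wild type. These sums describe transcripts in 3 libraries and carry no test. The Myc family sum holds Myc, Mycn and Mycl and leaves out Bmyc, a Myc relative outside the 10 members. Bmyc stood at 61.3 and 80.0 RPKM in Pax5-/- samples against 14.4 RPKM in wild type, so the ratios depend on leaving it out.

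**Figure D3:**
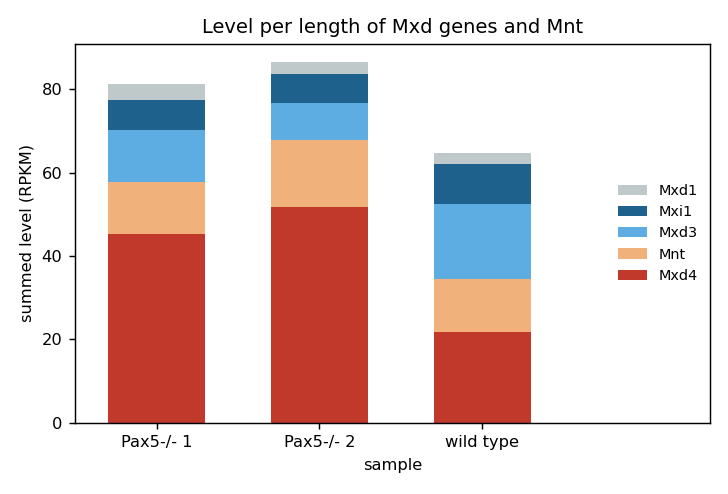
Levels in RPKM of the 4 Mxd genes and Mnt, stacked for each sample. The stack reaches 81.1 and 86.5 RPKM in the Pax5-/- samples and 64.7 RPKM in the wild type, and the red Mxd4 part is the one that is taller in both Pax5-/- samples by the most.

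Bmyc, a rodent Myc relative that lacks the DNA-binding end of Myc, rose further than any tested member. It had 335 and 459 counts in Pax5-/- samples against 78 in wild type, or 59.6 ± 11.1 CPM (SD, n = 2) against 12.2 CPM. The log2 fold change was 2.29 (SE 0.25, adjusted p = 0.0118, edgeR quasi-likelihood test), a call lost with the coefficient of variation set to 0.4. Of the 8 other family members and partners listed beside the network, 6 were tested, 1 was called higher and 0 lower. Of all genes tested, 9.53% were called higher and 8.55% lower, and a difference from these shares was not tested. At an unadjusted p under 0.05 in edgeR's test there were 1 higher and 1 lower. With limma-voom 1 gene was called lower, where DESeq2 called 0. That gene, named for this call, was Mlxip, the gene of MondoA, with 683 and 699 counts in Pax5-/- samples against 1009 in wild type (log2 fold change -0.60, edgeR adjusted p = 0.054). Mycs and Mlxipl, the gene of ChREBP, had 0 to 1 counts in every sample.

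In edgeR's main fit no gene of the proteins through which the network acts on chromatin was called, beside 18.1% of all genes tested. Whether 0 calls in lists this short differ from that share was not tested. Of 7 genes of corepressors recruited by Mxd proteins and Mnt, such as Sin3a, Sin3b, Hdac1 and Hdac2, 0 were called by edgeR, DESeq2 or limma-voom and 0 had an unadjusted p under 0.05. Their median log2 fold change was 0.05, and that of all genes tested 0.01. Sap30, a Sin3 complex subunit, was at -0.50 (SE 0.23, adjusted p = 0.208) and Ncor1, a nuclear receptor corepressor, at 0.29 (SE 0.15, adjusted p = 0.244). Of 14 Myc cofactor genes 0 were called by edgeR, DESeq2 or limma-voom, 4 had an unadjusted p under 0.05, all lower, and the median was 0.02. The smallest p belonged to Smarcb1, a chromatin remodelling subunit that binds Myc, at -0.52 (SE 0.13, adjusted p = 0.0629), and Actl6a, shared by remodelling and acetylase complexes, at -0.53 (SE 0.13, adjusted p = 0.0674). With robust estimation both passed the threshold.

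Among 13 genes that act on the stability of Myc or Mycn protein, 1 was called lower and 0 higher (median -0.24). That is 7.69% called lower, near the 8.55% of all genes tested. Pim2, a kinase that stabilises Myc, had 161 and 236 counts in Pax5-/- samples against 433 in wild type, or -1.18 as a log2 fold change (SE 0.24, adjusted p = 0.0423). The call was lost in 2 of 9 alternative settings, library size alone and the assumed coefficient of variation of 0.4. Pim2 lies on the X chromosome, and sex followed the genotype. At an unadjusted p under 0.05 there were 1 higher and 2 lower genes in this list by edgeR; DESeq2 and limma-voom each called 0 higher and 1 lower.

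Genes known to be activated by Myc were lower in part, although Myc itself was not called. Of 24 such genes of ribosome biogenesis, all tested, 3 fell, 0 rose and 21 were not called; that is 12.5% called lower, beside 8.55% of all genes tested. The log2 fold change was below 0 for 23 of them, with a median of -0.32, beside 5833 of all 11783 genes tested. Each of these values rests on the same 1 wild-type library. Rrs1, a 60S assembly factor, had 314 and 437 counts in Pax5-/- samples against 733 in wild type (-1.02 as a log2 fold change, SE 0.22, adjusted p = 0.0481). Bop1, of the PeBoW processing complex, had a log2 fold change of -0.71 with SE 0.13 (adjusted p = 0.0348) and Rrp9, a U3 snoRNP protein, -0.68 (SE 0.15, adjusted p = 0.0485). Of 9 alternative settings Bop1 was called in 7, Rrs1 in 6 and Rrp9 in 4; Rrs1 was lost with limma-voom (adjusted p = 0.0510), and Rrp9 with limma-voom (adjusted p = 0.0611) and DESeq2 (adjusted p = 0.165), among others. The count of lower genes ranged from 0 to 5 over these settings; 10 genes were lower and 0 higher at an unadjusted p under 0.05, and neither DESeq2 nor limma-voom called any higher. Of the 19 with a promoter entry, 4 held CACGTG (21.1%), beside 8.09% of all genes with an entry, a difference not tested.

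Of 28 Myc-activated genes of growth and metabolism, all tested, 9 fell, 0 rose and 19 were not called (32.1% lower, beside 8.55% of all genes tested). The median log2 fold change was -0.53. Eif4ebp1, the repressor of cap-dependent translation, had 237 and 323 counts in Pax5-/- samples against 1156 in wild type (-2.10 as a log2 fold change, SE 0.20, adjusted p = 0.00906). Slc7a5 and Slc3a2 encode the chains of the LAT1 amino acid transporter. Slc7a5 had 700 and 838 counts against 2236 (-1.59, SE 0.14) and Slc3a2 817 and 841 against 1563 (-0.97, SE 0.12). Ldha, lactate dehydrogenase A, had 4162 and 4002 against 8386 (-1.09, SE 0.11); it has processed copies in the genome, so its counts are uncertain. At an unadjusted p under 0.05, 1 gene was higher and 16 lower, and neither DESeq2 nor limma-voom called any higher. The count of lower genes was 5 with the likelihood ratio test and 1 with an assumed biological coefficient of variation of 0.4. Of the 23 with a promoter entry, 7 held CACGTG (30.4%), beside 8.09% of all genes with an entry, a difference not tested.

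**Figure D4:**
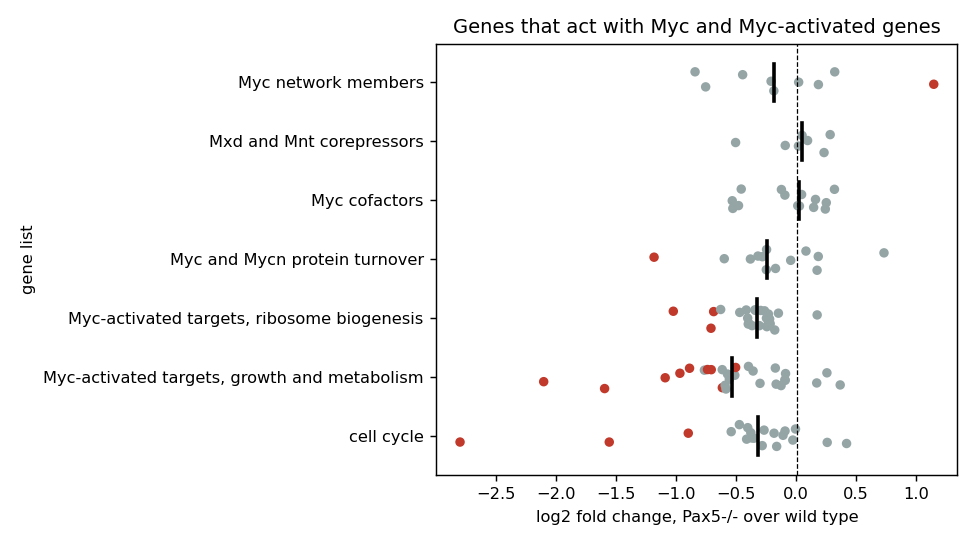
Log2 fold change, Pax5-/- over wild type, of each tested gene in 7 lists; red points were called at an adjusted p under 0.05, grey points were not, black bars are list medians and the dashed line is the median of all genes tested, 0.01. The medians of the Myc-activated lists lie at -0.32 and -0.53, that of the cell cycle list at -0.31 and those of the corepressor and cofactor lists near 0.

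Some cell cycle genes were lower too. Of 20 tested genes 3 fell, 0 rose and 17 were not called (median log2 fold change -0.31), or 15% lower beside 8.55% of all genes tested; 1 was higher and 7 lower at an unadjusted p under 0.05, and DESeq2 and limma-voom each called 3 lower and 0 higher. E2f2, a factor of S-phase entry, had 477 and 421 counts in Pax5-/- samples against 3020 in wild type (-2.80, SE 0.16, adjusted p = 0.00402). Rrm2, a subunit of ribonucleotide reductase, had 1260 and 1229 against 3531 (-1.55, SE 0.12), and Ccna2, cyclin A2, 2195 and 1884 against 3672 (-0.90, SE 0.16). Mki67, the marker of dividing cells, had 4524 and 4798 against 5727 and was not called (-0.35, SE 0.10, adjusted p = 0.0806). The part of cell division in the lower Myc-activated genes was not tested.

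Genes that Myc is known to repress, among them cell cycle inhibitors, went both ways. Of 14 listed, 12 were tested, of which 4 fell, 2 rose and 6 were not called, with a median of -0.62; of all genes tested 8.55% were called lower and 9.53% higher. DESeq2 called 3 lower and 1 higher, limma-voom 4 and 2, and edgeR with an assumed coefficient of variation of 0.4 called 2 and 1. The antiproliferative genes Btg1 and Btg2 fell: Btg1 had 289 and 246 counts in Pax5-/- samples against 2781 in wild type (-3.43, SE 0.17), and Btg2 308 and 431 against 1862 (-2.39, SE 0.21). Ndrg1, a stress-responsive gene, rose with 607 and 752 counts against 151 (log2 fold change 2.11, SE 0.20). Ndrg2 had 15 and 19 counts in Pax5-/- samples against 0 in wild type, at least 5.47-fold higher, taking 3 counts as the limit for the wild type; DESeq2 did not call it. Among the cyclin-dependent kinase inhibitors, Cdkn1b, the gene of p27, fell, with 378 and 400 counts in Pax5-/- samples against 829 in wild type (-1.14, SE 0.14, adjusted p = 0.0149). Cdkn2c had 149 and 125 counts against 255 (-0.94, SE 0.21, adjusted p = 0.0505) and Cdkn1c 3 and 2 against 15 (-2.58, SE 0.71, adjusted p = 0.0816), and neither was called. Cdkn1a, the gene of p21, had 858 and 1097 counts against 937 and was not called (0.01, SE 0.18, adjusted p = 0.982). Cdkn2b, at 0 and 0 counts against 3, was not tested.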

How the data were processed

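Total RNA of 2 Pax5-/- and 1 wildtype samples, grouped by title, was sequenced. The deposited values are raw gene counts, made by the authors with featureCounts against mm10 per the submitters' processing notes. Aligner, annotation, strand setting and version: not given in the sources used here. Each file holds, per the file headers, an Entrez number, a gene length and a count. The table of the whole series held equal counts in all 27179 genes. Symbols and positions came from RefSeq for GRCm38.p6, the assembly of mm10, by Entrez number (25275 matched). Overlaps came from GENCODE M21.

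Counts were tested in R 4.3.3 with edgeR 4.0.16 across all genes: filterByExpr with a minimum count of 10, TMM scaling, glmQLFit and glmQLFTest, Benjamini-Hochberg adjustment, threshold 0.05. There was 1 residual degree of freedom per gene, moderated with 3.15 prior degrees of freedom, and the biological coefficient of variation was 0.203. The wild type has no replicate and was assumed to vary like the Pax5-/- samples. The SE is the size of the log2 fold change over the square root of F, and 95% intervals use the moderated degrees of freedom. RPKM is TMM-scaled CPM per kilobase of deposited length. The steps were tested on simulated data. Intervals and limits from counts cover counting error only. Alternatives were RLE scaling, library size alone, other filters, DESeq2 1.42.0, limma-voom (limma 3.58.1), robust estimation, the likelihood ratio test and an assumed coefficient of variation of 0.4; single-sample differences used log2 CPM with a prior count of 2. Members and gene lists were chosen with earlier results of these data known. Of each list beside the members, up to 4 called genes averaging 1 CPM or more were named by size of change, or the 2 with the smallest p where none was called; Mki67, the cyclin-dependent kinase inhibitors, Mlxip, Ikzf1, Scd2 and the genes named only as examples or as markers were chosen apart from this rule.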

Additional observations from a re-analysis of the deposited data

How the results depend on the processing

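Across the 9 alternative settings, the 9 tested members kept their direction, and 80 comparisons with the threshold came out on the same side and 1 did not. The exception was Mxd4 with an assumed biological coefficient of variation of 0.4, where 0 members and 1083 genes were called, against 1 member and 2130 genes; that setting replaces the estimated spread by a larger one. Leaving out 1 Pax5-/- sample leaves no residual degree of freedom, so it gives values and no test. Myc then had a log2 fold change of 0.12 without sample 1 and -0.08 without sample 2, and Mnt one of 0.36 and -0.01, so both changed sign; the other 7 tested members did not. Lower calls among the Myc-activated ribosome biogenesis genes numbered 3, and were 1 with library size alone, 1 with the likelihood ratio test, 1 with limma-voom, 5 with robust estimation and 0 with the assumed 0.4. Among the growth and metabolism genes they numbered 9, and were 5 with the likelihood ratio test and 1 with the assumed 0.4. The cause of the other changes was not tested. No paired analysis was possible because the wild type is a single sample and shares only 1 replicate number with the Pax5-/- samples. Depth limits Mycl most, with 2 and 9 counts in Pax5-/- samples against 7 in wild type.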

Other observations

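Transcription factors and signalling genes known to control Myc in lymphoid cells were called in part. Of 14 tested, 2 rose, 4 fell and 8 were not called by edgeR's quasi-likelihood test, beside 9.53% higher and 8.55% lower of all genes tested. DESeq2 called 2 higher and 4 lower, limma-voom 2 and 5, and edgeR with an assumed coefficient of variation of 0.4 called 1 and 3. Ikzf3, the gene of Aiolos, a repressor of Myc in pre-B cells, had 9 and 22 counts in Pax5-/- samples against 1744 in wild type (-6.86 as a log2 fold change, SE 0.42, adjusted p = 0.00442). Its relative Ikzf1, Ikaros, had 4695 and 4823 counts against 3751 and was not called (0.29, SE 0.10, adjusted p = 0.123). Bach2, the gene of a transcriptional repressor, had 235 and 315 counts against 2131 (-3.01, SE 0.19, adjusted p = 0.00462). Notch1, whose signalling activates Myc in T-cell precursors, had 3503 and 4427 counts against 427 (3.16, SE 0.18, adjusted p = 0.00413), and Ebf1 666 and 848 against 2235 (-1.62, SE 0.16, adjusted p = 0.0100).

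Of 8 listed targets of the Mlx and Mondo partners, 6 were tested, 1 fell, 0 rose and 5 were not called. Of all genes tested, 8.55% were called lower and 9.53% higher, and a difference from these shares was not tested. At an unadjusted p under 0.05 in edgeR's test, 2 were higher and 1 lower. DESeq2 and limma-voom each called 1 lower and 0 higher. Scd1, a fatty acid desaturase, had 79 and 151 counts in Pax5-/- samples against 5018 in wild type (-5.51, SE 0.37, adjusted p = 0.00488). Its paralogue Scd2 had 4207 and 6912 counts against 2951 and was not called (0.85, SE 0.30, adjusted p = 0.131). Sequence shared between these paralogues was not measured, so reads split between them are uncertain.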
